A study of Homo sapiens with 60 samples.

Results

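The genes described here code for the non-collagen part of the extracellular matrix: 23 glycoproteins, 8 laminin chains and 11 proteoglycans, 42 genes out of the 60675 gene identifiers in the deposited table. They were taken from a list of named matrix genes, and a gene was to be dropped if it stayed under a level of 1 CPM (counts scaled to library size) in every library. None was dropped, and all 42 were among the 18601 genes tested. They were measured by RNA sequencing in SW1783, an established human astrocytoma cell line, after 24 h with a 70% ethanol extract of a medicinal herb or herbal formula, or with the solvent dimethyl sulfoxide (DMSO) alone as vehicle. The 60 libraries, with 19031094 to 37686975 expected counts each, form 25 groups.

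Vehicle had 3 libraries. Menthae Herba (mint herb), Saposhnikoviae Radix (a root), and the formulas Saengmaek-san and Guibi-tang had 3 libraries at each of 3 doses, 500, 100 and 20 µg/mL, called high, medium and low below. The formula Soyo-san had 2 libraries at each of the same doses, and the formula Okbyeongpung-san had 1. Aucklandiae Radix (a root) had 2 libraries at each of 160, 32 and 6.4 µg/mL, and Polygalae Radix (a root) had 2 at each of 30, 6 and 1.2 µg/mL. Per the labels, an extract whose 20% inhibitory concentration lay below 500 µg/mL was given at that concentration and at dilutions of it, so equal dose names stand for different amounts in these 2 extracts. In traditional recipes Guibi-tang holds Polygala and Aucklandia roots and Soyo-san holds mint. All libraries come from 1 cell line, all groups grew in the same serum-containing medium, and the labels give different DMSO shares in different places. The labels do not say that replicates came from separate cultures, so p-values measure only the spread between these libraries, which may be technical.

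Matrix glycoproteins such as fibronectin and the thrombospondins give cells a surface to adhere to and carry growth factors, and fibrillins with their fibulin and latent TGF-beta binding partners build elastic microfibrils. Laminins are trimers of an alpha, a beta and a gamma chain that form the sheet of basement membranes, where nidogens and perlecan tie them to other layers. Proteoglycans carry glycosaminoglycan chains, either in the matrix, as versican and decorin do, or at the cell surface, as syndecans and glypicans do. In the brain, tenascin-C and versican are known as components of a matrix that is abundant in gliomas, while basement membrane is normally found along vessels.

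Several libraries stood apart before any gene was tested. For each library, the slope of a gene's deviation from the vehicle mean on the length of its coding transcripts was computed over 10020 genes, and 10 libraries fell below a limit of -0.15 log2 units per doubling of length. These length-tilted libraries were low 2, low 3 and high 2 of Saposhnikoviae Radix, high 3 of Menthae Herba, replicate 1 of all 3 Saengmaek-san doses, low 2 and medium 2 of Guibi-tang, and the only high library of Okbyeongpung-san, with slopes from -0.448 to -0.155. Counts of called members that moved by over 1.5 times without these libraries are given with both values. No high library of Polygalae Radix or Guibi-tang was tilted, with slopes from 0.0648 to 0.0920. Library names place the extracts in 4 sets apart from vehicle, so set and extract cannot be told apart against vehicle, whereas high and low doses of an extract lie in the same set. The comparison of high with low dose is therefore given beside that with vehicle. All comparisons with vehicle share its 3 libraries. Mitochondrial genes took 4.09 to 19.2% of counts, with the highest share in Polygalae Radix high replicate 2 (replicate 3 had 11.7%). At each dose of Polygalae Radix and Aucklandiae Radix, which share a library set, replicate 2 had a higher share than replicate 3. The part of mitochondrial genes in the results was not tested.

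**Figure D1:**
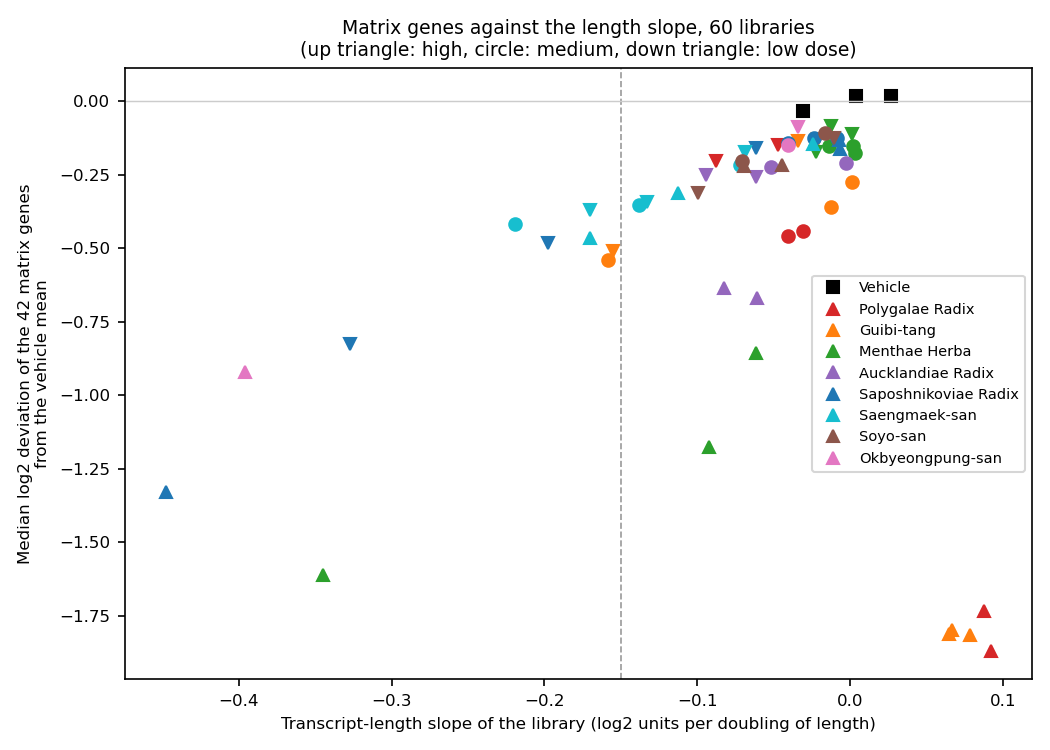
Median log2 deviation of the 42 matrix genes from the vehicle mean (vertical axis) against the length slope of each library (horizontal axis). The slope is in log2 units per doubling of coding transcript length. Colours mark extracts and marker shapes mark doses. The 10 length-tilted libraries lie left of the dashed line at the limit of -0.15. The most negative slope, -0.448, belongs to a high-dose library of Saposhnikoviae Radix.

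The cells did not show every marker of their label. Of 14 astrocyte and glioma markers, 7 (ALDH1L1, AQP4, GFAP, NTRK2, OLIG2, S100B and SOX2) were under 1 CPM in every library, while all 7 fibroblast and mesenchymal markers were above it. The summed level of the mesenchymal markers moved in the direction of the matrix genes: it was 6521 to 6888 CPM in vehicle, 935 to 1091 in Polygalae Radix high, 823 to 884 in Guibi-tang high, 1939 to 2618 in Menthae Herba high and 1750 to 1994 in Aucklandiae Radix high. Between high and low dose, 6 of 7 of these markers were called lower in Polygalae Radix and Aucklandiae Radix and 7 of 7 in Guibi-tang and Menthae Herba. The astrocyte list summed to 9284 to 9421 CPM in vehicle, 1966 to 2083 in Polygalae Radix high, 2111 to 2358 in Guibi-tang high, 7301 to 7695 in Menthae Herba high and 7579 to 9375 in Aucklandiae Radix high, where the higher library reached the vehicle range while the mesenchymal sum did not. The part of these shifts in the matrix results was not tested, and in bulk RNA fewer cells of a type and less RNA per cell cannot be told apart. Of the markers of other cells, 2 of 4 for epithelium, 0 of 3 for endothelium, 2 of 3 for leukocytes and 3 of 4 for neurons reached a mean of 1 CPM in vehicle, while CDH1, EPCAM, CDH5, VWF, CD3E and RBFOX3 were under it in every library. The epithelium sum was 142 to 155 CPM in vehicle, 26.5 to 27.7 in Polygalae Radix high, 23.4 to 24.3 in Guibi-tang high, 75.0 to 116 in Menthae Herba high and 77.7 to 93.8 in Aucklandiae Radix high. The neuron sum was 157 to 173 CPM in vehicle and, in the same order, 35.5 to 40.7, 53.8 to 58.2, 113 to 140 and 214 to 227, and the leukocyte sum 193 to 205 and then 47.6 to 71.6, 104 to 133, 158 to 178 and 202 to 292. Endothelium markers summed to at most 1.89 CPM in these groups.

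In vehicle cells the matrix genes together held 1.71% of all counts. Per kilobase of the longest annotated coding transcript, the highest levels in vehicle were those of SPARC (652 CPM per kb), FN1 (543), THBS1 (268), LAMB1 (121), TNC (113) and LAMC1 (98.7). SDC4 (79.6) and GPC1 (76.9) led the proteoglycans. The lowest were LAMA2 (0.109), FBLN5 (0.524), ELN (0.604) and FBLN2 (0.876), with DCN (1.34) and LAMA3 (1.38) above them. These ranks depend on the length used: the longest coding transcript of DCN has 7156 bases and the median one 753. For HSPG2 the lengths are 14327 and 865 bases. By level per length, the messages that led were those of osteonectin, fibronectin and thrombospondin-1, followed by the beta-1 and gamma-1 laminin chains.

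Most matrix genes were lower at the high dose of Polygalae Radix, Guibi-tang, Menthae Herba and Aucklandiae Radix than in vehicle. Calls are at an adjusted p below 0.05 by edgeR's quasi-likelihood test with Benjamini-Hochberg adjustment over all 18601 genes. Against vehicle, 36 of 42 were called lower and 0 higher in Polygalae Radix, 37 lower and 1 higher in Guibi-tang, 39 lower and 0 higher in Menthae Herba, and 26 lower and 1 higher in Aucklandiae Radix. The share of all tested genes called in the same comparisons was 50% (26.3% lower), 52.2% (27.7% lower, 24.5% higher), 24% (12.8% lower) and 34.2% (17.6% lower, 16.5% higher). The median log2 difference of the 42 was -1.85, -1.85, -1.22 and -0.71 in that order, while that of all genes lay between -0.01 and 0.03. The Aucklandiae Radix count depended on the fit: 36 lower and 2 higher were called there without the length-tilted libraries (51.2% of all genes). With its libraries and vehicle fitted alone the counts were 38 and 2, a fit for which no share of all genes is given. The same 2 fits gave 37 and 38 lower in Polygalae Radix, 37 in each for Guibi-tang, and 40 and 35 in Menthae Herba. In the 3 other extracts with replicates, 13 lower and 0 higher in Saengmaek-san (18.3% of all genes called, 9.25% lower), 5 lower and 1 higher in Saposhnikoviae Radix (13.8%, 4.33% lower and 9.47% higher), and 1 lower and 0 higher in Soyo-san (3.07%, 1.35% lower). Without the tilted libraries, Saengmaek-san had 22 lower (31.7% of all genes called, 16.2% lower) and Soyo-san 16 (15.4%, 7.44% lower), with 0 higher in each.

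High was also compared with low dose within each extract. In Polygalae Radix 37 members were called lower and 1 higher (47.7% of all genes called, 26.2% lower and 21.6% higher), with a median log2 difference of -1.59 against 0.03 for all genes. In Guibi-tang the counts were 36 and 1 (53.2%, 28.6% lower and 24.6% higher), with medians of -1.68 and 0.01. In Menthae Herba they were 39 and 0 (16.5%, 10% lower), with medians of -1.11 and 0.02, and in Aucklandiae Radix 16 and 1 (25%, 14.2% lower and 10.8% higher), with medians of -0.49 and -0.01. The Aucklandiae Radix total of 17 was 11 to 13 without any 1 of its 4 libraries, with 11 without high replicate 2. Without the length-tilted libraries, the counts lower and higher were 37 and 2, 37 and 2, 38 and 0, and 24 and 2. Saengmaek-san had 1 lower and 1 higher (6.04%, 3.38% lower and 2.66% higher), and 3 and 2 without the tilted libraries. Saposhnikoviae Radix and Soyo-san had 0 called by edgeR (0.398% and 0.538% of all genes). DESeq2 called 0 in both as well, and at an unadjusted p below 0.05 those 2 extracts had 6 lower and 1 higher, and 1 lower and 1 higher. These counts are given without a share of all genes. Leaving out the tilted libraries gave 0 and 1 called.

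**Figure D2:**
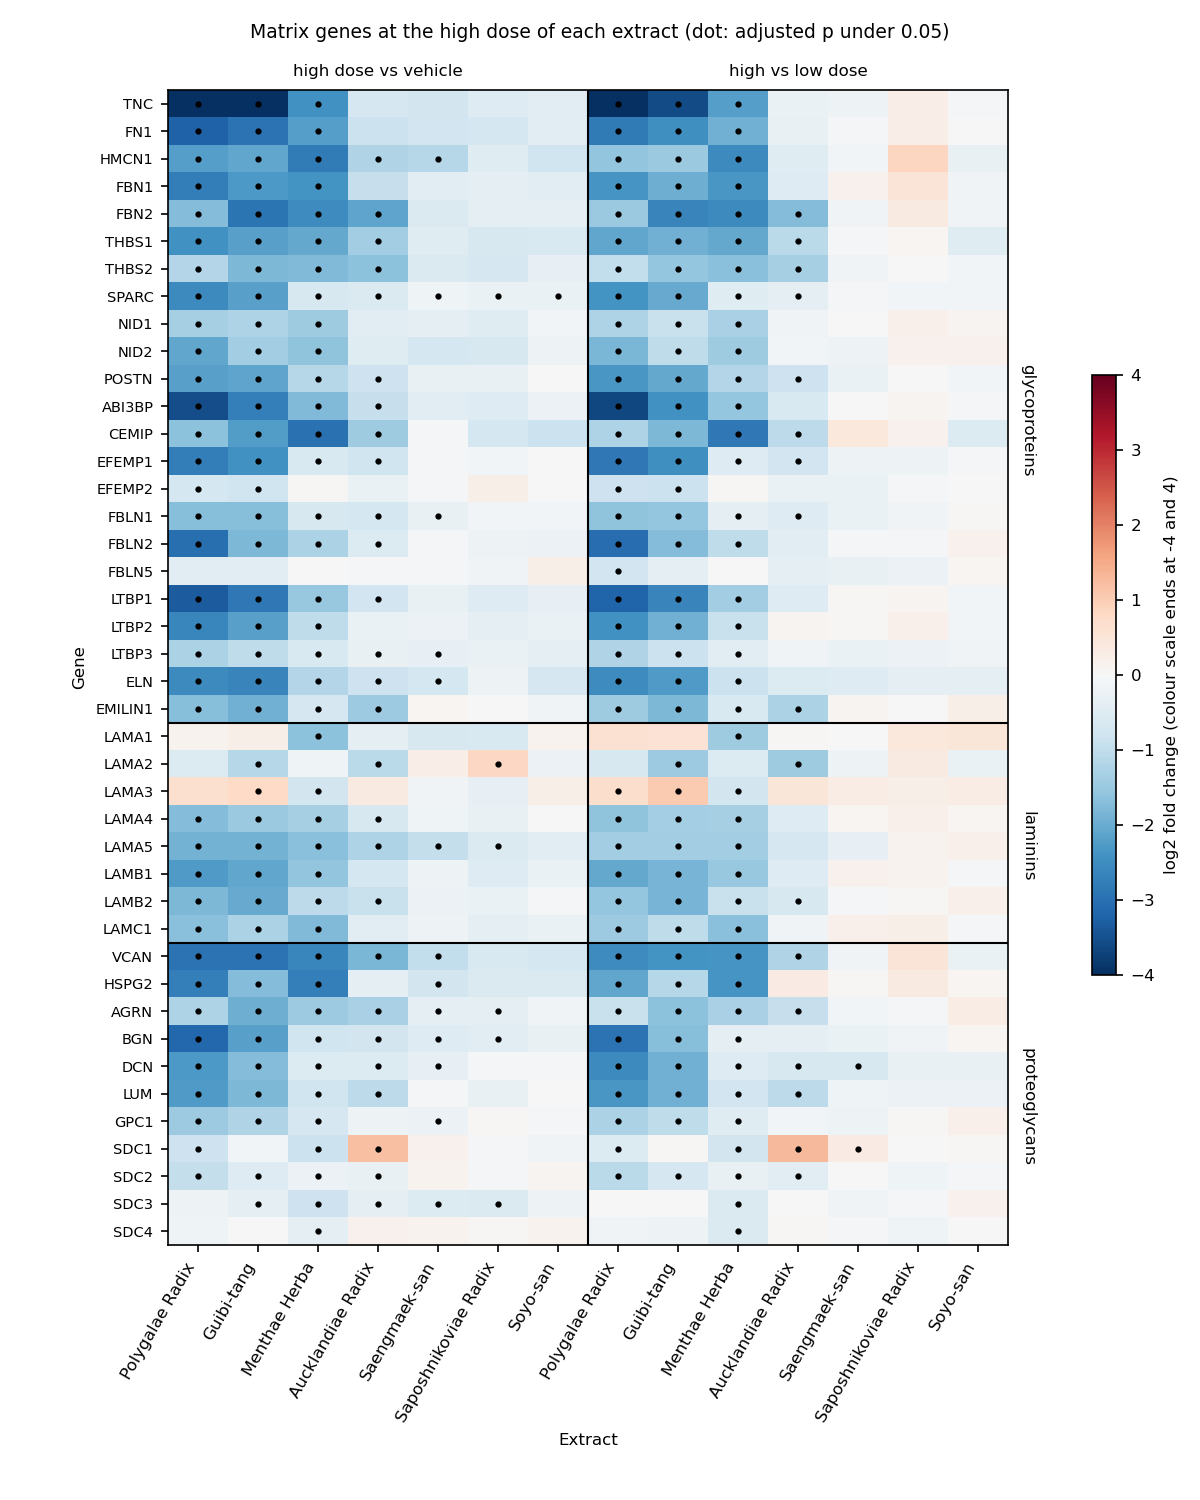
Log2 difference of each of the 42 matrix genes (vertical) at the high dose of each extract with replicates (horizontal). The left columns are against vehicle and the right ones against low dose. Colours run from lower to higher, genes are grouped by class, and dots mark called genes. Against vehicle, the columns of Polygalae Radix, Guibi-tang and Menthae Herba are the darkest in the lower direction, with medians of -1.85, -1.85 and -1.22.

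Members of all 3 classes were called lower. Between high and low dose, glycoproteins were called lower in 23 of 23 in Polygalae Radix, 22 of 23 in Guibi-tang, 21 of 23 in Menthae Herba and 9 of 23 in Aucklandiae Radix, with median log2 differences of -2.09, -1.91, -1.31 and -0.50. Of the 8 laminin chains, 5, 6, 7 and 2 were called lower in that order, with medians of -1.42, -1.38, -1.36 and -0.52, and 1 was called higher in Polygalae Radix and in Guibi-tang. Of the 11 proteoglycans, 9, 8, 11 and 5 were called lower, with medians of -1.27, -1.15, -0.58 and -0.35, and 1 was called higher in Aucklandiae Radix. The difference between classes was not tested.

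Summed over all 42 genes, the level at the high dose was 19.7% of the vehicle mean in Polygalae Radix (libraries at 19.5 and 19.8%), 23.5% in Guibi-tang, 33.9% in Menthae Herba (25.1 to 42.8%) and 58.8% in Aucklandiae Radix. The summed glycoproteins stood at 15.6%, 18.7%, 33.4% and 55.6% in the same order, the laminins at 28.8%, 34.3%, 33.6% and 64.7%, and the proteoglycans at 33.9%, 39.7%, 37.2% and 71.0%. In CPM, the glycoproteins summed to 12091 to 12940 in vehicle, 1962 and 1975 in Polygalae Radix high and 2277 to 2448 in Guibi-tang high. The 3 Menthae Herba high libraries gave 5373, 4211 and, in the length-tilted replicate 3, 3077. No high library of these extracts reached the vehicle range.

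**Figure D3:**
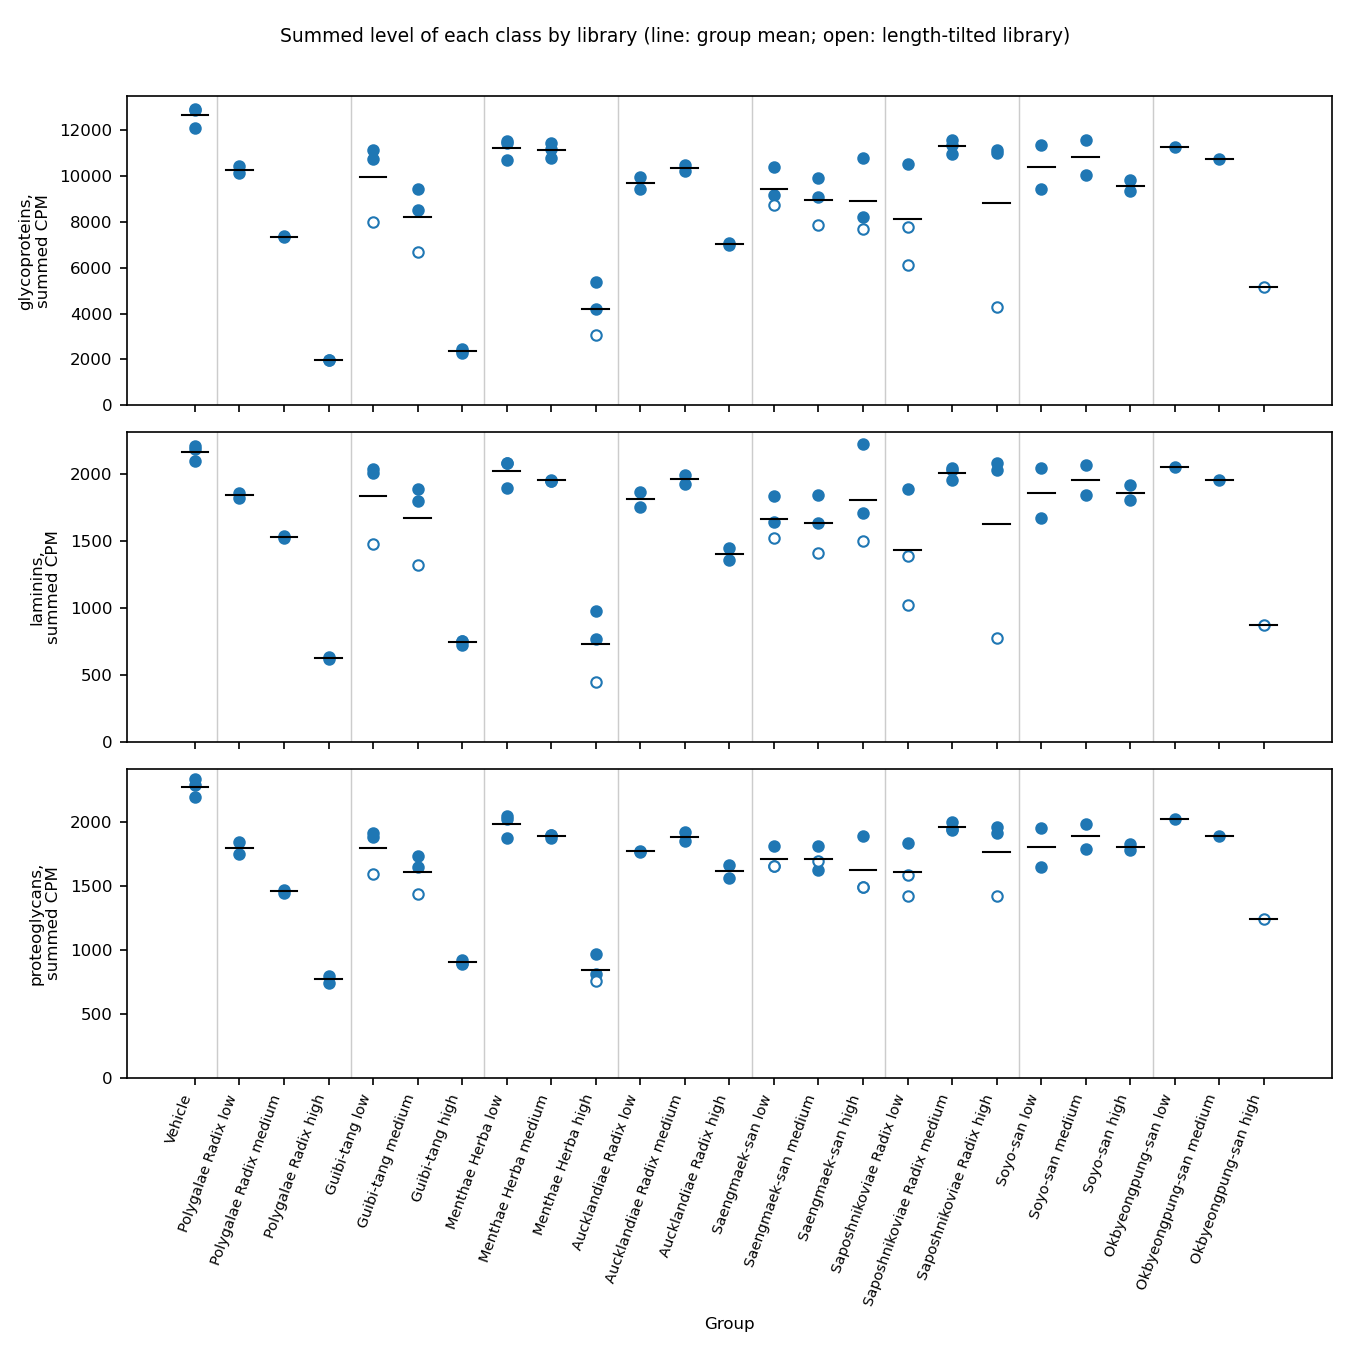
Summed level of the glycoproteins, laminins and proteoglycans (CPM, vertical axis) in each library by extract and dose; points are libraries, lines are group means and open points are length-tilted libraries. Polygalae Radix and Guibi-tang high libraries lie together at the bottom, with glycoproteins at 15.6% and 18.7% of the vehicle mean.

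Tenascin-C and fibronectin, glycoproteins that cells bind through integrins, fell together in 3 extracts. TNC (ENSG00000041982, chr9:115019578-115118257, minus strand, GRCh38) was at 824, 884 and 873 CPM in vehicle. At the low dose of Polygalae Radix it was at 707 and 640 CPM and at the high dose at 35.4 and 30.8, the largest fall of any member there. The groups lay far apart, with a log2 difference from low of -4.35 ± 0.41 (SE, adjusted p = 1.14e-11) and from vehicle of -4.70 ± 0.40 (adjusted p = 9.23e-13, 26.0-fold lower). Guibi-tang gave 705, 468 and 698 CPM at low and 53.0, 49.6 and 54.6 at high dose, again without overlap and again the largest fall, at -3.57 ± 0.32 from low (adjusted p = 2.53e-12) and -4.04 ± 0.33 from vehicle (adjusted p = 1.51e-13). Menthae Herba went from 781, 772 and 688 CPM to 230, 168 and 86.6, a log2 difference of -2.21 ± 0.30 (adjusted p = 5.37e-07). In Aucklandiae Radix the high libraries, at 543 and 529 CPM, lay below the low ones at 607 and 682, but the log2 difference of -0.26 did not pass (adjusted p = 0.662).

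FN1 (ENSG00000115414, chr2:215360440-215436172, minus strand), fibronectin, fell in the same 3 extracts as TNC. It was at 4473, 4987 and 5033 CPM in vehicle, 3720 and 3436 at the low and 506 and 510 at the high dose of Polygalae Radix, and 3968, 2278 and 3816 and then 621, 580 and 650 in Guibi-tang. In Menthae Herba the low libraries had 4101, 4184 and 3609 CPM and the high ones 1544, 1097 and 485, the last of them tilted. The high libraries of all 3 extracts lay below every low library, with log2 differences of -2.82 ± 0.43, -2.44 ± 0.35 and -1.93 ± 0.34. In Aucklandiae Radix the difference of -0.29 did not pass (adjusted p = 0.675).

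The thrombospondins, SPARC and periostin, secreted proteins that modulate adhesion more than they build fibres, followed. THBS1 was at 1962, 2052 and 2227 CPM in vehicle, 1670 and 1651 at low and 388 and 393 at high Polygalae Radix, and 1978, 1442 and 1870 at low and 470, 461 and 467 at high Guibi-tang. Menthae Herba went from 2133, 2054 and 2051 to 758, 504 and 243 CPM and Aucklandiae Radix from 1604 and 1722 to 734 and 837. High and low libraries did not overlap in any of the 4, with log2 differences of -2.09 ± 0.42, -1.92 ± 0.34, -2.05 ± 0.34 and -1.08 ± 0.41 (adjusted p = 6.69e-05, 8.2e-06, 1.81e-05 and 0.046). The Aucklandiae Radix call was lost without any 1 of its 4 libraries, with adjusted p from 0.107 to 0.215. Its call against vehicle, at -1.40, was lost without high replicate 2 (adjusted p = 0.0559).

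POSTN, which codes for periostin, stood at 99.1, 111 and 97.4 CPM in vehicle, went from 109 and 118 to 21.1 and 24.5 in Polygalae Radix and from 109, 87.5 and 101 to 23.8, 22.9 and 25.1 in Guibi-tang. It went from 102, 111 and 107 to 60.2, 49.2 and 31.1 in Menthae Herba and from 103 and 102 to 58.6 and 56.5 in Aucklandiae Radix. High lay below low in each, at -2.32 ± 0.26, -2.05 ± 0.21, -1.19 ± 0.21 and -0.83 ± 0.25 (adjusted p = 1.41e-09, 1.21e-10, 3.87e-05 and 0.0117). In Aucklandiae Radix, from low to high the call was lost without any 1 of the 4 libraries (adjusted p from 0.0518 to 0.0790), and against vehicle it was lost without high replicate 3 (adjusted p = 0.0510).

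SPARC (osteonectin), a collagen-binding glycoprotein, fell with log2 differences of -2.41 ± 0.08, -2.01 ± 0.06, -0.48 ± 0.06 and -0.38 ± 0.07 from low to high dose in Polygalae Radix, Guibi-tang, Menthae Herba and Aucklandiae Radix. In Soyo-san it was the only member called against vehicle in the model of all groups, at 1952 and 2053 CPM in the high libraries against 2471, 2489 and 2282 in vehicle, without overlap. That difference of -0.27 ± 0.07 (adjusted p = 0.0183) was lost without vehicle replicate 1 or 2 or without either high library, with adjusted p up to 0.292, and without the low-count filter (adjusted p = 0.578). The number of members called in Soyo-san was 16 without the tilted libraries (15.4% of all genes) and 11 with the slope as a covariate (16.4%). It was 22 with its libraries and vehicle fitted alone and 3 by DESeq2, both given without a share of all genes. THBS2 fell in the same 4 extracts from low to high, with log2 changes of -0.98, -1.54, -1.67 and -1.33. ABI3BP, an adhesive glycoprotein, had the second largest fall in Polygalae Radix, at -3.63 ± 0.38.

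Short motifs were searched just before the starts of the matrix genes. RefSeq windows of 250 bases before the annotated start (GRCh38.p14) were found for 33 of the 42 genes, with 39 entries. The letters TGANTCA, bound by AP-1 factors, lay in windows of LAMA3 and POSTN, against 6.57% of all 35116 windows. TGACGTCA, the cyclic AMP response element, lay in those of FN1 and LTBP1 (1.65% of all), and TATAAG, letters of a TATA box, in those of FN1, LAMA3, SDC4 and TNC (5.03%). GGAATG, bound by TEAD factors, lay in FBN1, LAMA2, SPARC, THBS1 and THBS2 (11.9%), and the CArG box bound by serum response factor in 0 members (1.16%). Both strands were searched, and a match is a description of letters, not of a bound site. The 30-base stretches below are shown because these genes carry the largest fall (TNC), 2 of the large glycoprotein falls (FN1 and LTBP1), a fall called in Menthae Herba alone (SDC4), and a fall and a rise around the same letters (POSTN and LAMA3). Capitals mark the match, and distances count bases before the annotated start.
TNC, chr9:115118167-115118196, minus strand, 27 to 22: aggagctcgctaTATAAGccagccaaagtt
FN1, chr2:215436079-215436108, minus strand, 28 to 23: gggaccgtcccaTATAAGccccggctcccg
FN1, chr2:215436233-215436262, minus strand, 183 to 176: acagtcccccgTGACGTCAcccggagcccg
LTBP1, chr2:32946848-32946877, plus strand, 94 to 87: gatctgccgccTGACGTCAcgtctgccgga
POSTN, chr13:37598970-37598999, minus strand, 220 to 214: taaacatgcagTGAGTCAattgttcatatg
LAMA3, chr18:23872884-23872913, plus strand, 125 to 119: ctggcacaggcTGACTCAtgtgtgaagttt
LAMA3, chr18:23872940-23872969, plus strand, 69 to 63: ccttcctcaccTGAGTCAggcaggcccggg
LAMA3, chr18:23872978-23873007, plus strand, 30 to 25: aggaagggcaggTATAAGaggaagaggcag
SDC4, chr20:45348438-45348467, minus strand, 31 to 26: cggtaggccgccTATAAGatgggtggcgcg
The start listed for LAMA3 is an internal one within the gene (chr18:23689443-23956222, plus strand), and gene-level counts do not tell which start was used. The TATAAG stretches of TNC and FN1 also lie inside the spans given above for these genes, which come from another annotation than the starts.

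Among the microfibril genes, FBN2 and EFEMP1 fell in all 4 extracts. FBN2 codes for fibrillin-2, a building block of microfibrils, and stood at 15.1, 19.5 and 17.0 CPM in vehicle. It went from 15.4 and 13.2 to 5.06 and 5.29 CPM from low to high in Polygalae Radix, from 17.2, 9.62 and 16.3 to 2.33, 2.37 and 2.16 in Guibi-tang, from 18.5, 18.3 and 16.5 to 4.96, 3.02 and 1.11 in Menthae Herba and from 12.5 and 13.8 to 3.91 and 4.04 in Aucklandiae Radix. No high library overlapped the low ones, and the log2 differences were -1.47 ± 0.47, -2.65 ± 0.41, -2.55 ± 0.40 and -1.73 ± 0.49 (adjusted p = 0.00913, 7.36e-07, 8.19e-06 and 0.00658). It was the largest fall of any member in Aucklandiae Radix, also against vehicle at -2.11 ± 0.46 (adjusted p = 0.000343). The Aucklandiae Radix call from low to high was lost without high replicate 2 or 3 (adjusted p = 0.0591 and 0.0515), and that in Polygalae Radix without high replicate 2 (0.0606).

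EFEMP1, fibulin-3, a secreted glycoprotein of elastic tissue, fell with little scatter. It stood at 230, 236 and 217 CPM in vehicle, 235 and 245 at low and 32.6 and 34.0 at high Polygalae Radix, and 244, 229 and 220 and then 42.4, 39.9 and 44.7 in Guibi-tang. Menthae Herba went from 212, 219 and 214 to 162, 152 and 136 CPM and Aucklandiae Radix from 229 and 222 to 135 and 130, smaller steps but again without overlap. The log2 differences were -2.85 ± 0.09, -2.45 ± 0.08, -0.52 ± 0.07 and -0.77 ± 0.09 (adjusted p = 4.4e-25, 5.65e-26, 8.31e-07 and 6.84e-09).

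From low to high dose, the other elastic fibre genes mostly fell in 3 extracts. FBN1 (fibrillin-1) fell with log2 differences of -2.35, -1.96 and -2.31 from low to high dose in Polygalae Radix, Guibi-tang and Menthae Herba. ELN (elastin) fell with log2 differences of -2.51, -2.26 and -0.85 in the same order, and FBLN2 (fibulin-2) with -3.05, -1.75 and -1.03. The latent TGF-beta binding proteins, which store TGF-beta in the matrix, did the same: LTBP1 with -3.20, -2.63 and -1.40, LTBP2 with -2.41, -1.91 and -0.89, and LTBP3 with -1.20, -0.85 and -0.47. None of these 6 was called in Aucklandiae Radix between the doses, where FBLN1 fell with a log2 difference of -0.50 ± 0.11 and EMILIN1 with -1.25 ± 0.21. Against vehicle, however, ELN, FBLN2, LTBP1 and LTBP3 were called lower at the high dose of Aucklandiae Radix, and ELN and LTBP3 at that of Saengmaek-san. EFEMP2 and FBLN5 fell in Polygalae Radix (-0.82 and -0.78) and were not called in Menthae Herba, at 0.04 and 0.02.

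CEMIP, which takes part in the breakdown of hyaluronan, was the member that fell most in Menthae Herba. It stood at 26.0, 25.5 and 27.0 CPM in vehicle and 24.0, 24.9 and 23.3 at the low dose, and at 4.29, 3.56 and 2.01 at the high dose, well below both. The log2 difference was -2.87 ± 0.32 from low (adjusted p = 8.96e-09) and -2.99 ± 0.32 from vehicle (adjusted p = 2.83e-09). Polygalae Radix went from 21.1 and 18.4 to 7.66 and 9.27 CPM, Guibi-tang from 20.7, 13.4 and 23.0 to 5.10, 5.78 and 5.69 and Aucklandiae Radix from 18.3 and 21.5 to 8.16 and 11.3. High lay below low in each, at -1.23 ± 0.36, -1.78 ± 0.30 and -1.04 ± 0.36 (adjusted p = 0.00507, 4.4e-06 and 0.0315). The Polygalae Radix call was lost without high replicate 2 (adjusted p = 0.0601) and the Aucklandiae Radix call without any 1 of its 4 libraries (0.0528 to 0.249).

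The basement membrane linkers fell less evenly. From low to high dose, HMCN1 (hemicentin-1), NID1 and NID2 (nidogens) fell with log2 differences of -2.55, -1.31 and -1.41 in Menthae Herba. The differences were -1.57, -1.25 and -1.81 in Polygalae Radix and -1.48, -0.88 and -1.01 in Guibi-tang. Against vehicle at the high dose, HMCN1 was called lower in 5 extracts, among them Aucklandiae Radix. HMCN1 was also the largest fall in Saengmaek-san against vehicle, at 11.7, 29.1 and 13.1 CPM in the high libraries and 32.3, 43.5 and 43.1 in vehicle, where high replicate 2 lies nearest to the vehicle libraries. The log2 difference of -1.14 ± 0.40 (adjusted p = 0.0423) was lost without vehicle replicate 2 or 3 or without Saengmaek-san high replicate 1 or 3 (adjusted p from 0.111 to 0.206). The tilted library of that group is high replicate 1.

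Laminin chains did not move as a block. LAMB1, LAMB2 and LAMC1, the beta and gamma chains, and LAMA4 and LAMA5, the alpha chains of vessel and general basement membranes, fell from low to high dose in Polygalae Radix, Guibi-tang and Menthae Herba, with log2 differences from -2.05 (LAMB1, Polygalae Radix) to -0.91 (LAMB2, Menthae Herba). In Aucklandiae Radix the laminins called from low to high dose were LAMB2 (-0.63) and LAMA2 (-1.41), the muscle and nerve chain with the lowest level of the set. LAMA4 and LAMA5 were called lower there against vehicle only. LAMA2 also fell in Guibi-tang (-1.46) and was not called in Polygalae Radix (-0.63) or Menthae Herba (-0.55).

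LAMA3, the alpha-3 chain of epithelial laminins, was called higher in 2 extracts. It stood at 14.4, 14.8 and 15.0 CPM in vehicle. Guibi-tang libraries had 14.6, 8.80 and 14.1 CPM at low, 20.2, 11.7 and 17.5 at medium and 24.5, 26.4 and 26.2 at high dose, where every high library lay above every vehicle, low and medium library. The rise was 1.04 ± 0.25 from low (adjusted p = 0.000486) and 0.80 ± 0.25 from vehicle (adjusted p = 0.00568). Low replicate 2 and medium replicate 2, at the bottom of their groups, are length-tilted, and without tilted libraries the rise from low was 0.83, with the slope as a covariate 0.56 (adjusted p = 5.7e-07).

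In Polygalae Radix LAMA3 was at 14.2 and 13.5 CPM at low, 13.5 and 11.4 at medium and 22.8 and 22.8 at high dose, again without overlap. The rise from low of 0.72 ± 0.30 (adjusted p = 0.0473) was lost without any 1 of the 4 libraries (adjusted p from 0.113 to 0.167) and was 0.15 with the slope as a covariate (adjusted p = 0.243). Without the tilted libraries, none of which is in this extract, it was 0.71 (adjusted p = 1e-04). Against vehicle the difference of 0.63 was not called (adjusted p = 0.0501). In Menthae Herba LAMA3 went the other way, from 16.9, 15.1 and 12.8 CPM at low to 11.0, 10.0 and 5.51 at high dose, with the tilted replicate 3 the lowest. The fall of -0.75 ± 0.25 (adjusted p = 0.0352) was lost without high replicate 3 (-0.50, adjusted p = 0.301) or without low replicate 1 or 2 (adjusted p = 0.130 and 0.0845), and was -0.25 with the slope as a covariate (adjusted p = 0.0463). That against vehicle, -0.73 ± 0.25 (adjusted p = 0.0307), was lost without high replicate 3 or any vehicle library (adjusted p from 0.0555 to 0.257), and was -0.20 with the slope as a covariate (adjusted p = 0.11). With the compared groups fitted alone or without the low-count filter neither fall was called (adjusted p from 0.104 to 0.156).

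LAMA1, the alpha chain of embryonic basement membrane, showed a like split without a rise that passed. It was at 20.4, 25.7 and 23.0 CPM in vehicle, 17.2 and 16.4 at low and 24.3 and 26.9 at high Polygalae Radix, and 20.9, 13.6 and 20.0 at low and 27.7, 26.9 and 26.1 at high Guibi-tang. These differences, 0.61 and 0.56, had adjusted p of 0.141 and 0.0812, although the high libraries lay above the low ones. In Menthae Herba LAMA1 fell from 21.6, 19.6 and 17.9 to 10.5, 7.69 and 3.90 CPM, a log2 change of -1.41 ± 0.29 (adjusted p = 0.000362).

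**Figure D4:**
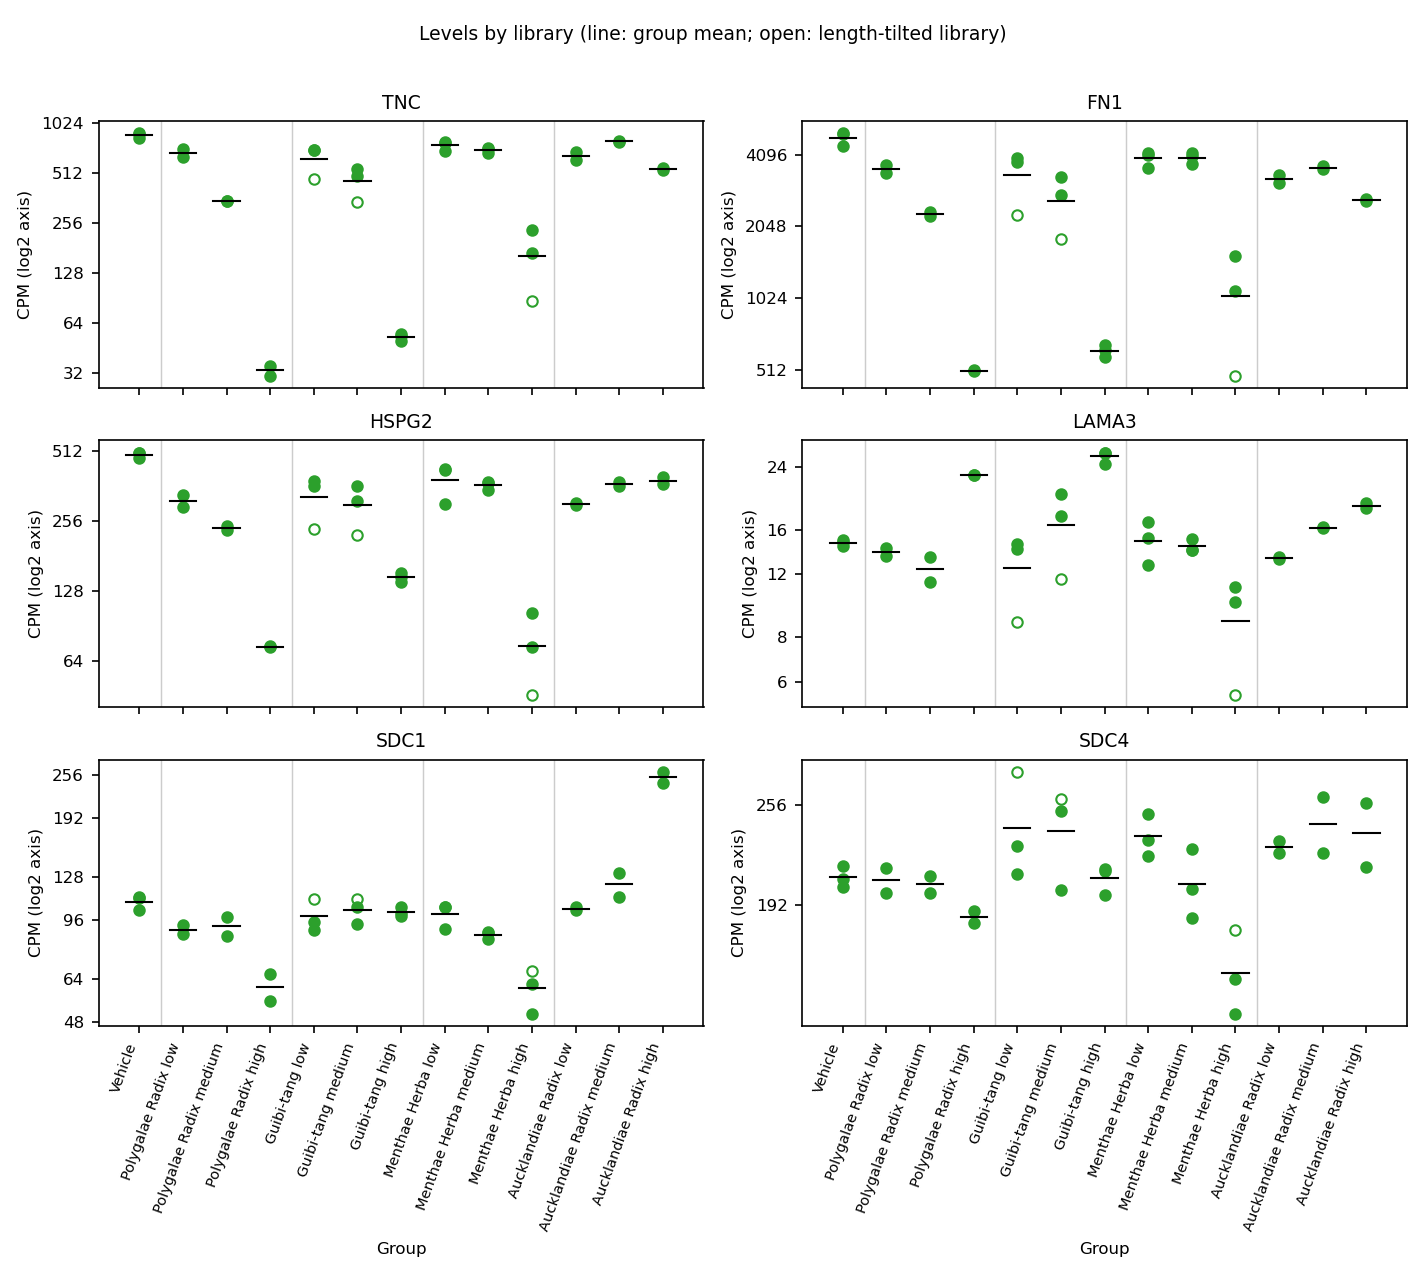
Level of selected matrix genes (CPM, log axis) in each library by extract and dose; points are libraries and open points are length-tilted libraries. TNC is lowest in Polygalae Radix high at 35.4 and 30.8 CPM, LAMA3 is highest in Guibi-tang high at 24.5, 26.4 and 26.2 CPM, and SDC1 is highest in Aucklandiae Radix high at 242 and 262 CPM.

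The matrix proteoglycans fell with the glycoproteins. VCAN (versican), a large chondroitin sulfate proteoglycan, was at 598, 703 and 737 CPM in vehicle, went from 537 and 458 at low to 84.0 and 91.7 at high Polygalae Radix and from 551, 306 and 514 to 89.8, 82.8 and 88.4 in Guibi-tang. In Menthae Herba it went from 569, 596 and 545 to 173, 111 and 46.1 CPM and in Aucklandiae Radix from 440 and 458 to 200 and 186. High and low never overlapped, and the log2 differences were near each other in the first 3 extracts: -2.50 ± 0.42, -2.39 ± 0.34 and -2.37 ± 0.34, with -1.22 ± 0.40 in Aucklandiae Radix (adjusted p = 4.13e-06, 1.57e-07, 1.41e-06 and 0.0217). The last call was lost without any 1 of its 4 libraries, with adjusted p from 0.0661 to 0.125. In Saengmaek-san VCAN fell with a log2 difference of -1.0 ± 0.33 against vehicle (adjusted p = 0.0279), a call lost without vehicle replicate 2 or 3 or high replicate 1 or 3 (adjusted p from 0.0704 to 0.156).

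HSPG2 (perlecan), the heparan sulfate proteoglycan of basement membranes, was at 476, 498 and 502 CPM in vehicle. From low to high it went from 329 and 294 to 73.9 and 74.0 in Polygalae Radix, from 378, 236 and 361 to 153, 140 and 147 in Guibi-tang and from 428, 421 and 303 to 103, 74.0 and 45.9 in Menthae Herba, without overlap. The log2 differences were -2.08 ± 0.34, -1.15 ± 0.27 and -2.37 ± 0.28. In Aucklandiae Radix the low libraries had 300 and 306 CPM and the high ones 368 and 394, and the difference of 0.33 did not pass (adjusted p = 0.521). AGRN (agrin), which organises synapses and basement membranes, fell in all 4, with log2 changes of -0.88, -1.65, -1.30 and -0.91.

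The small leucine-rich proteoglycans, which bind and space collagen fibrils, included DCN, the member called lower from low to high dose in the most extracts (5). Against vehicle at the high dose, SPARC was called lower in 7 extracts, AGRN, BGN and LAMA5 in 6 each, and DCN in 5. DCN (decorin) was at 9.97, 9.74 and 9.07 CPM in vehicle. It went from 10.3 and 12.5 at low to 1.92 and 1.99 at high Polygalae Radix, from 11.6, 10.6 and 11.0 to 2.84, 2.86 and 2.99 in Guibi-tang, from 9.26, 9.62 and 9.71 to 6.43, 6.47 and 6.99 in Menthae Herba and from 10.7 and 9.54 to 6.72 and 6.35 in Aucklandiae Radix. Saengmaek-san, at 11.4, 12.5 and 11.6 CPM low and 7.76, 7.36 and 7.83 high, was the fifth extract without overlap. The log2 differences were -2.54 ± 0.12, -1.93 ± 0.09, -0.52 ± 0.09, -0.63 ± 0.11 and -0.63 ± 0.08 (adjusted p = 7.57e-21, 9.63e-21, 1.53e-05, 1.31e-05 and 2.92e-06). In Saengmaek-san DCN was the only member called in opposite directions against vehicle at 2 doses, 0.30 at low and -0.33 at high.

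LUM (lumican) was at 21.5, 21.0 and 20.3 CPM in vehicle. It went from 19.2 and 24.7 to 4.29 and 4.47 in Polygalae Radix, from 22.6, 23.4 and 22.7 to 6.19, 5.71 and 6.23 in Guibi-tang, from 19.2, 20.0 and 22.4 to 13.3, 11.7 and 11.5 in Menthae Herba and from 21.7 and 20.6 to 8.59 and 11.8 in Aucklandiae Radix. High lay below low throughout, at -2.32 ± 0.16, -1.92 ± 0.13, -0.75 ± 0.12 and -1.05 ± 0.15 (adjusted p = 1.86e-15, 3.25e-16, 1.16e-05 and 7.15e-07). From low to high dose, BGN (biglycan) fell with a log2 difference of -2.96 ± 0.17 in Polygalae Radix and -1.71 ± 0.13 in Guibi-tang. It fell less in Menthae Herba, with -0.37 ± 0.13 (adjusted p = 0.0436). Against vehicle at the high dose it was called lower in 6 extracts, among them Aucklandiae Radix.

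The cell-surface proteoglycans were the least uniform. SDC2 fell in all 4 extracts, with log2 changes of -1.07, -0.68, -0.30 and -0.46, and GPC1 (glypican-1) in 3, with log2 changes of -1.27, -1.01 and -0.48. From low to high dose, SDC3 and SDC4 fell in Menthae Herba alone among the 4 (log2 differences -0.58 ± 0.13 and -0.57 ± 0.11). In Polygalae Radix and Guibi-tang they stood at 0.02 and 0.02, and at -0.15 and -0.21. Against vehicle, SDC3 was called lower at the high dose of 5 extracts, among them Guibi-tang and Aucklandiae Radix. The difference between the extracts in these genes was larger than the error for SDC3, at 0.60 ± 0.18 for Guibi-tang against Menthae Herba (adjusted p = 0.0078), and for SDC4 it was 0.36 ± 0.16 (adjusted p = 0.0661).

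SDC1 (syndecan-1), a coreceptor for growth factors and matrix, was the only member called higher in Aucklandiae Radix. It was at 111, 102 and 112 CPM in vehicle, 105 and 102 at low, 112 and 132 at medium and 242 and 262 at high dose. Both high libraries lay above all others of the extract and of vehicle, a rise of 1.29 ± 0.12 from low (adjusted p = 1.03e-10) and 1.22 ± 0.11 from vehicle (adjusted p = 1.14e-11, 2.33-fold higher). Saengmaek-san went from 102, 99.9 and 91.4 CPM at low to 134, 115 and 120 at high, a rise of 0.33 ± 0.10 (adjusted p = 0.0383) that was lost in 5 of the 6 refits without 1 library (adjusted p up to 0.210), all but that without high replicate 2. In Polygalae Radix SDC1 fell, from 86.8 and 92.6 to 66.4 and 55.2 CPM, a log2 change of -0.56 ± 0.12 (adjusted p = 0.000238), and in Menthae Herba from 104, 90.1 and 104 to 62.1, 50.5 and 67.8, a log2 change of -0.73 ± 0.10 (adjusted p = 7.62e-07). In Guibi-tang the low libraries, at 89.3, 111 and 94.4 CPM, and the high ones, at 98.2, 105 and 100, overlapped (0.04, adjusted p = 0.744).

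Overlap between extracts was counted for the high against low comparisons, which share no library between extracts. Polygalae Radix and Guibi-tang shared 35 lower members, 94.6% of the first list and 97.2% of the second. Polygalae Radix and Menthae Herba shared 35 (94.6% and 89.7%), and Guibi-tang and Menthae Herba 34 (94.4% and 87.2%). Over all tested genes, the shares of the 2 lists that were lower in both were 84.9% and 77.7% for Polygalae Radix and Guibi-tang, 18.7% and 48.8% for Polygalae Radix and Menthae Herba, and 18.4% and 52.4% for Guibi-tang and Menthae Herba. Aucklandiae Radix shared 15 with Polygalae Radix (93.8% of its own list, 40.5% of the other) and 16 with Guibi-tang (100% and 44.4%). Over all genes these shares were 44.7% and 24.2%, and 61.4% and 30.4%. With Menthae Herba it shared 15 (93.8% and 38.5%), beside 25.7% and 36.3% over all genes. The share of the Menthae Herba list thus lay near that of all genes. In all, 34 members were lower in each of Polygalae Radix, Guibi-tang and Menthae Herba (4.4% of all genes), and 15 in all 4 (2.11% of all genes): AGRN, CEMIP, DCN, EFEMP1, EMILIN1, FBLN1, FBN2, LAMB2, LUM, POSTN, SDC2, SPARC, THBS1, THBS2 and VCAN. The 15 include fibulins, a thrombospondin pair, collagen-binding proteoglycans and versican. Between high and low dose, LAMA1, LAMA3, SDC3 and SDC4 were lower in Menthae Herba alone, although SDC3 was lower against vehicle in 5 extracts.

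The extracts were also compared with each other directly. At the high dose, within 1 library set, Polygalae Radix (30 µg/mL) had 31 members lower and 0 higher than Aucklandiae Radix (160 µg/mL), with 50.9% of all genes called and 26.1% lower, and SDC1 differed by -2.05 ± 0.13 (adjusted p = 7.56e-17). These 2 doses are not equal. Both at 500 µg/mL, Menthae Herba had 37 members lower and 0 higher than Saposhnikoviae Radix (14.9%, 8.95% lower). Guibi-tang had 35 lower and 2 higher than Saengmaek-san (53.6%, 27.7% lower and 25.9% higher), the latter LAMA3 (0.94) and LAMA1 (0.87).

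The change from low to high was compared across sets as an interaction. Guibi-tang against Polygalae Radix differed in 7 of 42 members (4.36% of all genes, 1.81% lower and 2.55% higher): AGRN fell more in Guibi-tang (-0.77 ± 0.18), while SPARC, EFEMP1, SDC1, DCN, FBLN2 and BGN (1.25 ± 0.21) had the more negative change in Polygalae Radix. That total was 4 without Polygalae Radix high replicate 2, 2 without its low replicate 3 and 16 without the tilted libraries. The change was more negative in Guibi-tang than in Aucklandiae Radix in 22 members and less so in 0 (28.2%, 15.8% lower), and 34 differed without the tilted libraries. Soyo-san differed from Menthae Herba in 22 members (3.75%, 2.9% higher), all with the more negative change in Menthae Herba, a count that was 11 and 8 without Soyo-san high or low replicate 1 and 34 without the tilted libraries. These pairs set a formula beside a herb of its traditional recipe, at doses of the whole extract that are not matched for the herb.

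Comparisons of Guibi-tang and Polygalae Radix with Menthae Herba were added after LAMA3 had been seen, so its differences are a description. The change from low to high was more negative in Guibi-tang in 19 members and more positive in 6 (43.4% of all genes differed, 24% lower and 19.4% higher), and in Polygalae Radix in 19 and 4 (41.5%, 23.2% and 18.3%). For LAMA3 the differences were 1.78 ± 0.35 and 1.46 ± 0.39, for LAMA1 1.98 and 2.02, and for CEMIP 1.08 and 1.64. In the other direction EFEMP1 differed by -1.93 and -2.33, BGN by -2.60 and TNC by -2.14 in Polygalae Radix against Menthae Herba. In Menthae Herba the longer members had the larger falls: over the 25 members with a coding transcript of at least 5000 bases its median log2 difference was -1.51, over the 17 shorter ones -0.52, while those of Polygalae Radix were -1.57 and -1.61 and those of Guibi-tang -1.78 and -1.56. The high libraries 1 and 2 of Menthae Herba, above the tilt limit, had slopes of -0.0614 and -0.0920, and the part of the slope in this pattern was not tested beyond the refits given here.

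Dose courses were ordered in Polygalae Radix and Guibi-tang. The group mean fell from low to medium to high in 37 of 42 members in each, in 27 in Menthae Herba and 19 in Aucklandiae Radix. It did so in 29 in the single libraries of Okbyeongpung-san, whose high library is length-tilted (slope -0.396). In Saengmaek-san the count was 14, in Soyo-san 10 and in Saposhnikoviae Radix 6. No share of all genes is given for this order, so these counts have no background here. Summed over all members, Polygalae Radix went through 81.5%, 60.5% and 19.7% of the vehicle mean, Guibi-tang through 79.7%, 67.3% and 23.5%, Menthae Herba through 89.2%, 87.7% and 33.9%, and Aucklandiae Radix through 77.7%, 83.1% and 58.8%. The median deviation of the members from vehicle was below 0 in every treated library, from -1.87 to -0.0846, low doses included, and vehicle lies in a library set of its own.

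At the medium dose against vehicle, 8 members were called lower in Polygalae Radix (4.77% of all genes called, 2.68% lower), 7 in Guibi-tang (7.21%, 3.44% lower) and 7 in Aucklandiae Radix (4.53%, 1.92% lower), with 0 higher in each. The Polygalae Radix members were TNC (-1.31 ± 0.34), VCAN (-1.28), HSPG2 (-1.05), LAMA5, BGN, LAMB2, SPARC and EFEMP1. Those of Guibi-tang were TNC (-0.91), LAMA5, BGN, AGRN, LAMB2, SPARC and FBLN1, and those of Aucklandiae Radix EMILIN1 (-0.68), AGRN (-0.68), BGN, DCN, LAMB2, FBLN1 and SPARC. These counts moved both ways. Without 1 library each they were 1 to 5 in Polygalae Radix, with 1 without medium replicate 3, and 2 to 4 in Aucklandiae Radix, with 2 without either medium library. Without the tilted libraries they were 29 in Polygalae Radix (17.8% of all genes called, 9.31% lower), 21 in Guibi-tang (17%, 8.49% lower) and 14 in Aucklandiae Radix (18.1%, 8.18% lower), all lower. Soyo-san, Menthae Herba, Saengmaek-san and Saposhnikoviae Radix had 0 called by edgeR at the medium dose (0.382%, 1.09%, 4.47% and 1.2% of all genes). DESeq2 called 0, 1, 3 and 0, for which, as for the unadjusted counts, no share of all genes is given. At an unadjusted p below 0.05 the 4 extracts had 2, 7, 13 and 4. Once the tilted libraries were left out they had 2, 8, 23 and 3 (7.08%, 9.45%, 23% and 10.5% of all genes), all lower but 1 in Saengmaek-san.

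At the low dose against vehicle, Polygalae Radix, Aucklandiae Radix, Menthae Herba and Soyo-san had 0 members called by edgeR (1.38%, 0.866%, 0.538% and 1.74% of all genes). At an unadjusted p below 0.05 they had 6, 7, 4 and 10, and DESeq2 called 0, 2, 2 and 1. No share of all genes is given for these counts. With the tilted libraries left out, 6, 18, 5 and 12 were called, all lower (12.3%, 14.4%, 7.43% and 14.5% of all genes). Saengmaek-san had 1, DCN at 0.30 (4.16% of all genes called, 2.74% higher), and Guibi-tang 1, BGN at -0.47 (2.8%, 0.978% lower). The DCN call was lost without any 1 of its 6 libraries, and that of BGN without any vehicle library or low replicate 2. Without the tilted libraries, Saengmaek-san had 18 lower and 1 higher (20% of all genes) and Guibi-tang 2 lower (4.94%).

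Counts in Saposhnikoviae Radix moved with single libraries. Its low dose had 12 members lower and 1 higher against vehicle (17.9% of all genes called, 8.31% lower and 9.56% higher), where low replicates 2 and 3 are tilted. The total was 0 without low replicate 3, and also 0 without vehicle replicate 3, which is not tilted. It was 30 without low replicate 1, 4 without low replicate 2, and 6 and 3 without vehicle replicates 1 and 2. At the high dose the 6 called members were LAMA5, SDC3 (-0.56), BGN (-0.43), AGRN (-0.38) and SPARC (-0.27), lower, and LAMA2, higher. LAMA5 was at 173, 76.6 and 160 CPM in the high libraries and 207, 205 and 207 in vehicle, with the tilted replicate 2 far below its partners. Its difference of -0.59 ± 0.21 (adjusted p = 0.0499) was lost without that library (-0.31, adjusted p = 0.486) and without any vehicle library (0.0920 to 0.120), and its adjusted p was 0.744 with the compared groups fitted alone. TNC showed the same scatter, at 807, 200 and 786 CPM. The total of 6 was 1 without high replicate 2, 18 and 13 without high replicates 1 and 3, 2 or 3 without a vehicle library, and 0 with the compared groups fitted alone.

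LAMA2, the other called end of that comparison, was at 1.70, 2.01 and 1.88 CPM in the high libraries of Saposhnikoviae Radix and 0.952, 0.811 and 1.40 in vehicle, without overlap and at low levels. The rise of 0.82 ± 0.23 (adjusted p = 0.0188) was lost without vehicle replicate 1 or 2 or high replicate 2 (adjusted p up to 0.11), without the low-count filter (0.0726) and with the compared groups fitted alone (0.744).

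In Saengmaek-san the 13 members lower against vehicle at the high dose were, after HMCN1 and VCAN, LAMA5 (-0.95), HSPG2 (-0.72), ELN (-0.70), SDC3, BGN, AGRN, LTBP3, DCN, FBLN1, GPC1 and SPARC (-0.17). The total was 4 without high replicate 1, which is tilted, 7 without high replicate 3, and 8 and 6 without vehicle replicates 1 and 2. Without all tilted libraries of the study, 22 were called lower and 0 higher (31.7% of all genes called). With the slope as a covariate, 19 were lower and 3 higher (37.3% of all genes called). Okbyeongpung-san, whose 3 doses were pooled as 1 group because each has 1 library, had 8 lower and 0 higher (12.1% of all genes, 6.21% lower): CEMIP (-1.20), THBS1, HSPG2 (-0.81), LAMA5, SDC3, AGRN, LAMB2 and SPARC. Without its tilted high library the count was 0, without the low library 17, and 4, 4 and 5 without vehicle replicates 1, 2 and 3.

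Genes around these members give the setting, from lists of the wider matrix. From low to high dose, 36 tested matrix glycoproteins and laminins outside the set were lower in 23 and higher in 2 in Polygalae Radix, 29 and 0 in Guibi-tang, 13 and 0 in Menthae Herba, and 12 and 1 in Aucklandiae Radix. COMP, a thrombospondin of cartilage, fell with a log2 difference of -4.10 in Polygalae Radix and -2.50 in Guibi-tang. The 14 tested proteoglycans and link proteins were lower in 11, 12, 8 and 8 and higher in 1, 1, 0 and 2 in the same order. As shares lower, the first list had 63.9%, 80.6%, 36.1% and 33.3% and the other 78.6%, 85.7%, 57.1% and 57.1%, above the shares of all genes given earlier. HAPLN1, which links versican to hyaluronan, fell with a log2 difference of -2.06 in Polygalae Radix and -2.05 in Guibi-tang.

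Of 34 tested enzymes that build, sulfate or break down glycosaminoglycan chains, 9 were lower and 6 higher in Polygalae Radix, 8 and 8 in Guibi-tang, 6 and 6 in Aucklandiae Radix, and 21 and 0 in Menthae Herba. As shares lower, 26.5%, 23.5% and 17.6% in the first 3 lie near those of all genes (26.2%, 28.6% and 14.2%), and 61.8% in Menthae Herba stands beside 10%. In Menthae Herba XYLT1, which starts the chains, fell with a log2 difference of -2.03 ± 0.35. HAS2, a hyaluronan synthase, rose by 1.84 ± 0.17 in Aucklandiae Radix. The 36 tested matrix proteases and inhibitors were lower in 26, 23, 24 and 8 and higher in 0, 0, 0 and 5 in Polygalae Radix, Guibi-tang, Menthae Herba and Aucklandiae Radix. The shares lower were 72.2%, 63.9%, 66.7% and 22.2%, against 26.2%, 28.6%, 10% and 14.2% of all genes. MMP14, a membrane-bound collagenase, rose by 1.38 ± 0.12 in Aucklandiae Radix.

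The 19 genes of the TGF-beta pathway, a known inducer of matrix genes, did not move one way across extracts. They were higher in 12 and lower in 1 in Polygalae Radix and higher in 9 and lower in 3 in Guibi-tang, but lower in 9 and higher in 1 in Menthae Herba and lower in 6 and higher in 1 in Aucklandiae Radix. Their shares higher were 63.2% and 47.4% in the first 2 (21.6% and 24.6% of all genes), and their shares lower 47.4% and 31.6% in the last 2 (10% and 14.2%). The receptor TGFBR1 rose by 1.32 ± 0.22 in Polygalae Radix and 1.19 ± 0.18 in Guibi-tang, and the ligand TGFB2 fell with a log2 difference of -1.60 ± 0.40 in Menthae Herba. The 10 matrix receptors other than integrins were lower in 6, 9, 4 and 2 in Polygalae Radix, Guibi-tang, Menthae Herba and Aucklandiae Radix and higher in 0. These shares of 60%, 90%, 40% and 20% lower stand beside 26.2%, 28.6%, 10% and 14.2% of all genes, and with 10 genes the last lies near its background. DAG1 (dystroglycan), a laminin receptor, fell with a log2 difference of -1.41 in Polygalae Radix and -0.79 in Menthae Herba.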

How the data were processed

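Expression was measured by RNA sequencing (directional mRNA libraries, paired-end reads, per the labels' protocols). The authors deposited RSEM-type expected counts per Ensembl gene for 60 libraries, with totals of 19031094 to 37686975. FastQC 0.11.9, Trim Galore 0.6.5, STAR 2.7.3a and RSEM 1.3.3 with GRCh38 are named in the submitters' processing notes, which give no roles. The annotation release is not given in the sources used here. Gene names, positions and lengths came from GENCODE 29.

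Expected counts were rounded to whole numbers, and genes were kept with edgeR's filter (minimum count 10, minimum total 15), with the 3 Okbyeongpung-san doses merged for the filter only. One model of 25 groups (35 residual degrees of freedom, TMM scaling) was fitted to 18601 genes with edgeR 4.0.16 in R 4.3.3 (quasi-likelihood, robust), after it was tested on simulated data. Levels are TMM-scaled CPM, and standard errors were derived from the F statistic. DESeq2 1.42.0, no filter, other scaling, separate fits, left-out libraries, a replicate block and 2 length adjustments were alternatives. Counts limit the precision of lowly expressed members such as LAMA2.

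Values of every library are given for the member with the largest called fall and rise of each high-dose comparison. They are also given for the 8 members called lower in the most high against low comparisons (ties by the mean fall). Members called higher in at least 2 such comparisons were treated in the same way. Of the other lists, the called genes were taken from the 2 with the largest change each way. FN1, LAMA1 and HSPG2 were added after their values were seen. The members and lists were chosen with earlier results of these data known, and the comparisons with Menthae Herba were added later.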

Additional observations from a re-analysis of the deposited data

Results flagged for a closer look

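Extracts differed in the response of these genes by tests of the difference itself. At the high dose, 31 of 42 members differed between Polygalae Radix and Aucklandiae Radix, whose doses are unequal (50.9% of all genes differed), 37 between Menthae Herba and Saposhnikoviae Radix (14.9%), and 37 between Guibi-tang and Saengmaek-san (53.6%). In the change from low to high dose, 7 differed between Guibi-tang and Polygalae Radix (4.36%), a count that was 2 without Polygalae Radix low replicate 3 and 4 without its high replicate 2. Further, 22 differed between Guibi-tang and Aucklandiae Radix (28.2%), and 22 between Soyo-san and Menthae Herba (3.75%), the latter 8 and 11 without Soyo-san low or high replicate 1. The comparisons added later gave 25 between Guibi-tang and Menthae Herba (43.4%) and 23 between Polygalae Radix and Menthae Herba (41.5%).

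A pair of members is listed because they moved in opposite directions, so their differences describe what was already seen and are no further evidence. SDC1 differed by a log2 value of -2.05 between Polygalae Radix high and Aucklandiae Radix high. The low to high change of LAMA3 differed by 1.78 between Guibi-tang and Menthae Herba and by 1.46 between Polygalae Radix and Menthae Herba, with the rise in the first of each pair. No group had enough libraries for a test of single outlying values.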

How the results depend on the processing

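No named log2 fold change changed sign under any alternative run. The median over the members did in 4 comparisons: it went from 0.07 to -0.13 for Saposhnikoviae Radix high against low, and from -0.33 and -0.27 to just above 0 for Saengmaek-san medium and low against vehicle, with the length slope as a covariate, where the medians of all genes for Polygalae Radix and Guibi-tang high against low were -0.02 and -0.00328. Leaving out 1 library turned it as well, to between -0.08 and -0.06 in Saposhnikoviae Radix (without high replicate 1 or 3 or low replicate 3) and from -0.06 to 0.05 in Soyo-san high against low (without low replicate 2). In the comparisons of high dose with vehicle and with low dose, the counts of Polygalae Radix, Guibi-tang and Menthae Herba moved by over 1.5 times in 1 case: Menthae Herba high against low had 25 called (39 in the full model) when the compared groups were fitted alone. Counts of called members that did move are given with the value of the full model in brackets, and their causes were not tested. They are listed here without shares of all genes. RLE scaling moved none. Depth limits the lowly expressed members, and groups of 2 or 1 libraries limit the rest.

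Without the low-count filter, against vehicle at the high dose, Saposhnikoviae Radix had 1 called (6), Saengmaek-san 4 (13) and Soyo-san 0 (1). At the medium dose Polygalae Radix had 2 (8), Aucklandiae Radix 1 (7) and Guibi-tang 4 (7), and at the low dose Saposhnikoviae Radix 4 (13), Saengmaek-san 0 (1) and Guibi-tang 0 (1). Saengmaek-san high against low had 1 (2), Okbyeongpung-san 4 (8), Guibi-tang against Polygalae Radix 2 (7), and Soyo-san against Menthae Herba 10 (22).

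With length-tilted libraries left out, at the high dose Soyo-san had 16 (1) and Saengmaek-san 22 (13). For medium doses the counts were 29 (8) in Polygalae Radix, 14 (7) in Aucklandiae Radix, 8 (0) in Menthae Herba, 3 (0) in Saposhnikoviae Radix, 23 (0) in Saengmaek-san, 21 (7) in Guibi-tang and 2 (0) in Soyo-san. At the low dose they were 6 (0) in Polygalae Radix, 18 (0) in Aucklandiae Radix, 5 (0) in Menthae Herba, 0 (13) in Saposhnikoviae Radix, 19 (1) in Saengmaek-san, 2 (1) in Guibi-tang and 12 (0) in Soyo-san. High against low gave 26 (17) in Aucklandiae Radix, 5 (2) in Saengmaek-san and 1 (0) in Soyo-san, and Okbyeongpung-san gave 1 (8). The interactions gave 16 (7) for Guibi-tang against Polygalae Radix, 34 (22) for Guibi-tang against Aucklandiae Radix and 34 (22) for Soyo-san against Menthae Herba.

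With the length slope as a covariate, at the high dose Saposhnikoviae Radix had 10 (6), Saengmaek-san 22 (13) and Soyo-san 11 (1). Medium doses had 26 (8) in Polygalae Radix, 14 (7) in Aucklandiae Radix, 14 (0) in Menthae Herba, 6 (0) in Saposhnikoviae Radix, 3 (0) in Saengmaek-san, 29 (7) in Guibi-tang and 2 (0) in Soyo-san. Low doses had 5 (0) in Polygalae Radix, 5 (0) in Aucklandiae Radix, 7 (0) in Menthae Herba, 2 (13) in Saposhnikoviae Radix, 6 (1) in Saengmaek-san, 11 (1) in Guibi-tang and 10 (0) in Soyo-san. High against low had 28 (17) in Aucklandiae Radix, 7 (0) in Saposhnikoviae Radix, 16 (2) in Saengmaek-san and 3 (0) in Soyo-san. The interactions had 23 (7) for Guibi-tang against Polygalae Radix, 34 (22) against Aucklandiae Radix, and 37 (23) for Polygalae Radix against Menthae Herba.

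DESeq2 called 3 (1) in Soyo-san high, 14 (8), 1 (0), 3 (0) and 12 (7) in the medium doses of Polygalae Radix, Menthae Herba, Saengmaek-san and Guibi-tang, and 2 (0), 2 (0), 4 (1), 2 (1) and 1 (0) in the low doses of Aucklandiae Radix, Menthae Herba, Saengmaek-san, Guibi-tang and Soyo-san. With the compared groups alone, Saposhnikoviae Radix high had 0 (6), Soyo-san high 22 (1), Aucklandiae Radix high against low 30 (17), Saengmaek-san high against low 1 (2) and Okbyeongpung-san 0 (8). Of 87 named calls, 7 were then lost: LAMA2 and LAMA5 in Saposhnikoviae Radix (adjusted p = 0.744 each), LAMA3 in Menthae Herba against low (0.156) and vehicle (0.113), HMCN1 and SDC1 in Saengmaek-san (0.0614 and 0.0668) and DCN in Menthae Herba (0.0511). Without the filter 13 were lost.

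Leaving out 1 library at a time gave these ranges. Against vehicle at the high dose they were 36 to 37 in Polygalae Radix, 18 to 25 in Aucklandiae Radix, 37 to 39 in Menthae Herba, 1 to 18 in Saposhnikoviae Radix, 4 to 14 in Saengmaek-san, 37 to 38 in Guibi-tang and 0 to 1 in Soyo-san. At the medium dose they were 1 to 5 in Polygalae Radix, 2 to 4 in Aucklandiae Radix and 5 to 7 in Guibi-tang, and at the low dose 0 to 30 in Saposhnikoviae Radix, 0 to 1 in Guibi-tang and 0 in Saengmaek-san. High against low gave 33 to 37 in Polygalae Radix, 11 to 13 in Aucklandiae Radix, 36 to 38 in Menthae Herba, 0 to 14 in Saposhnikoviae Radix (14 without high replicate 2, 1 without low replicate 1), 1 to 2 in Saengmaek-san, 37 to 38 in Guibi-tang and 0 in Soyo-san. Okbyeongpung-san gave 0 to 17. Between extracts the ranges were 25 to 27 for Polygalae Radix against Aucklandiae Radix, 29 to 38 for Menthae Herba against Saposhnikoviae Radix, and 36 to 38 for Guibi-tang against Saengmaek-san. The interactions gave 2 to 7 for Guibi-tang against Polygalae Radix, 20 to 26 against Aucklandiae Radix, 22 to 26 against Menthae Herba, 8 to 29 for Soyo-san against Menthae Herba and 22 to 25 for Polygalae Radix against Menthae Herba. A lone library was assumed to vary like the other groups.

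The replicate block moved 1 count by over 1.5 times, Soyo-san high against vehicle, to 2 (1). It ended the calls of HMCN1 in Saengmaek-san (adjusted p = 0.0515) and LAMA5 in Saposhnikoviae Radix (0.0508) against vehicle, and of LAMA3 in Polygalae Radix from low to high (0.0531). In no extract with 3 pairs did every same-numbered pair deviate together by a correlation over 0.1. High against low, it ranged from 0.0436 to 0.385 in Guibi-tang, -0.141 to 0.451 in Menthae Herba, -0.290 to 0.753 in Saengmaek-san and -0.883 to 0.900 in Saposhnikoviae Radix. With 2 pairs it was 0.381 in Polygalae Radix, -0.0473 in Aucklandiae Radix and -0.507 in Soyo-san, and the numbers were not taken as pairs. The mitochondrial share still differed in the same direction between replicates 2 and 3 at each dose of Polygalae Radix and Aucklandiae Radix.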
